A study of Mus musculus with 6 samples.

Results

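The genes described here are 36 genes whose proteins work in the nucleolus on ribosome assembly. They were chosen by name, with earlier results of these data known. The group holds RNA polymerase I subunits, proteins of the small nucleolar ribonucleoproteins (snoRNPs), assembly factors of the small and large ribosomal subunits, and abundant nucleolar proteins. Of the 36 genes, 33 were measured, by 50 probes, among 20091 features in all, of which 13053 carried a gene symbol. Nop56, Wdr43 and Utp20 were matched to no probe and are not analysed here. The remaining 33 were well above background on all 6 arrays.

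RNA came from astrocytes grown in primary culture from cortex and striatum of 1-day-old wild-type C57BL/6J mice. Each of 3 groups was measured on 2 Agilent arrays of the one-colour kind. Washout cultures were kept for 48 h with 1 µM Ro3303544 and then for 48 h without it, Ro cultures for 48 h with 1 µM Ro3303544, and control cultures in medium with 10% serum, to which the treatment protocol adds a matching amount of DMSO. Ro3303544 inhibits glycogen synthase kinase 3 (GSK-3), a kinase of Wnt and growth factor signalling. All cultures had earlier received 5 µM cytosine arabinoside, which kills dividing cells, to remove microglia, and per the labels fewer than 1% of cells were then positive for the microglial protein Iba1. Washout cultures were 17 days in vitro at harvest, and Ro and control cultures 15 days, with no control of the washout age. The labels do not say whether the 2 samples of a group came from separate cultures, so the p-values measure the spread between these samples only, which may be technical.

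In the nucleolus, RNA polymerase I transcribes one long precursor RNA from the ribosomal DNA repeats. Box C/D and box H/ACA snoRNPs guide methyl groups and pseudouridines onto that RNA, and assembly factors fold it, cut it and load it with ribosomal proteins into the precursors of the small and large subunits. The genes of this machinery are classical targets of Myc proteins, which bind with Max to the E-box CACGTG.

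The E-box was searched in the promoters of these genes, from 250 bases before to 50 bases after the RefSeq start, a window of 300 bases on assembly GRCm38.p6. The motif is its own reverse complement, so that a match on 1 strand is a match on both. Of the 30 listed genes with a promoter sequence 5 held it (16.7%), as did 17 of 89 other nucleolar assembly genes (19.1%) and 2187 of all 27025 promoters (8.09%). The 5 were Nop2, Pes1, Utp4, Utp20 and Wdr43. The windows of the 3 measured genes among them are shown because these genes can be set beside their array values, with 12 bases on either side and the E-box in capitals.
Nop2 (chr6:125131811-125131840, + strand, motif beginning 60 bases before the start): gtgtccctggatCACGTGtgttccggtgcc
Pes1 (chr11:3963965-3963994, + strand, motif beginning at base 3 of the transcript): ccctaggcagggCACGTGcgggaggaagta
Utp4 (chr8:106893643-106893672, + strand, motif beginning at base 16 of the transcript): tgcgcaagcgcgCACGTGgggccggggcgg

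Levels below are log2 processed intensities minus the array's 75th percentile, so that 0 is that array's 75th percentile and each unit a doubling. Changes are differences between group means of these levels (2 arrays a group), and the value after ± is limma's standard error. A gene was called where the Benjamini-Hochberg adjusted p of limma's moderated two-sided test over all 20091 features was under 0.05. With 2 arrays on each side the smallest two-sided p of an exact permutation test is 0.333, so each call rests on the spread that limma pools. Ro and control were hybridised on 1 slide and washout on a different slide, so washout and slide cannot be told apart. The number of arrays limits the precision: the standard errors of the 33 genes lay between 0.067 and 0.17. The 75th percentile of the intensity ranged from 631 to 807 and no spot was saturated. The measured signal is from bulk RNA, in which fewer cells of a type and less RNA per cell cannot be told apart.

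The nucleolar assembly genes were higher with the GSK-3 inhibitor. Of the 33 measured, 20 rose in Ro relative to control and 0 fell, against 19.4% of all features called higher and 22.7% called lower. All 33 had a change above 0, as did 50.4% of all features. Their median change was 0.36, with a range of 0.01 to 0.79, beside a median of 0.00 over all features. Both Ro arrays lay above both control arrays for 31 of the 33, a pattern that 38.5% of all features showed. The calls depended on having both arrays of a group: 6 genes were called higher without Ro 1, 5 without Ro 2, 9 without control 1 and 10 without control 2. The share of all features called higher fell too, to 9.08% without Ro 1, 10.2% without Ro 2, 12.0% without control 1 and 13.3% without control 2. Testing the dim probes too left 10 genes called, beside 7.61% of all features. A fit within the slide that they share, on the Ro and control arrays only, called 22.

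**Figure D1:**
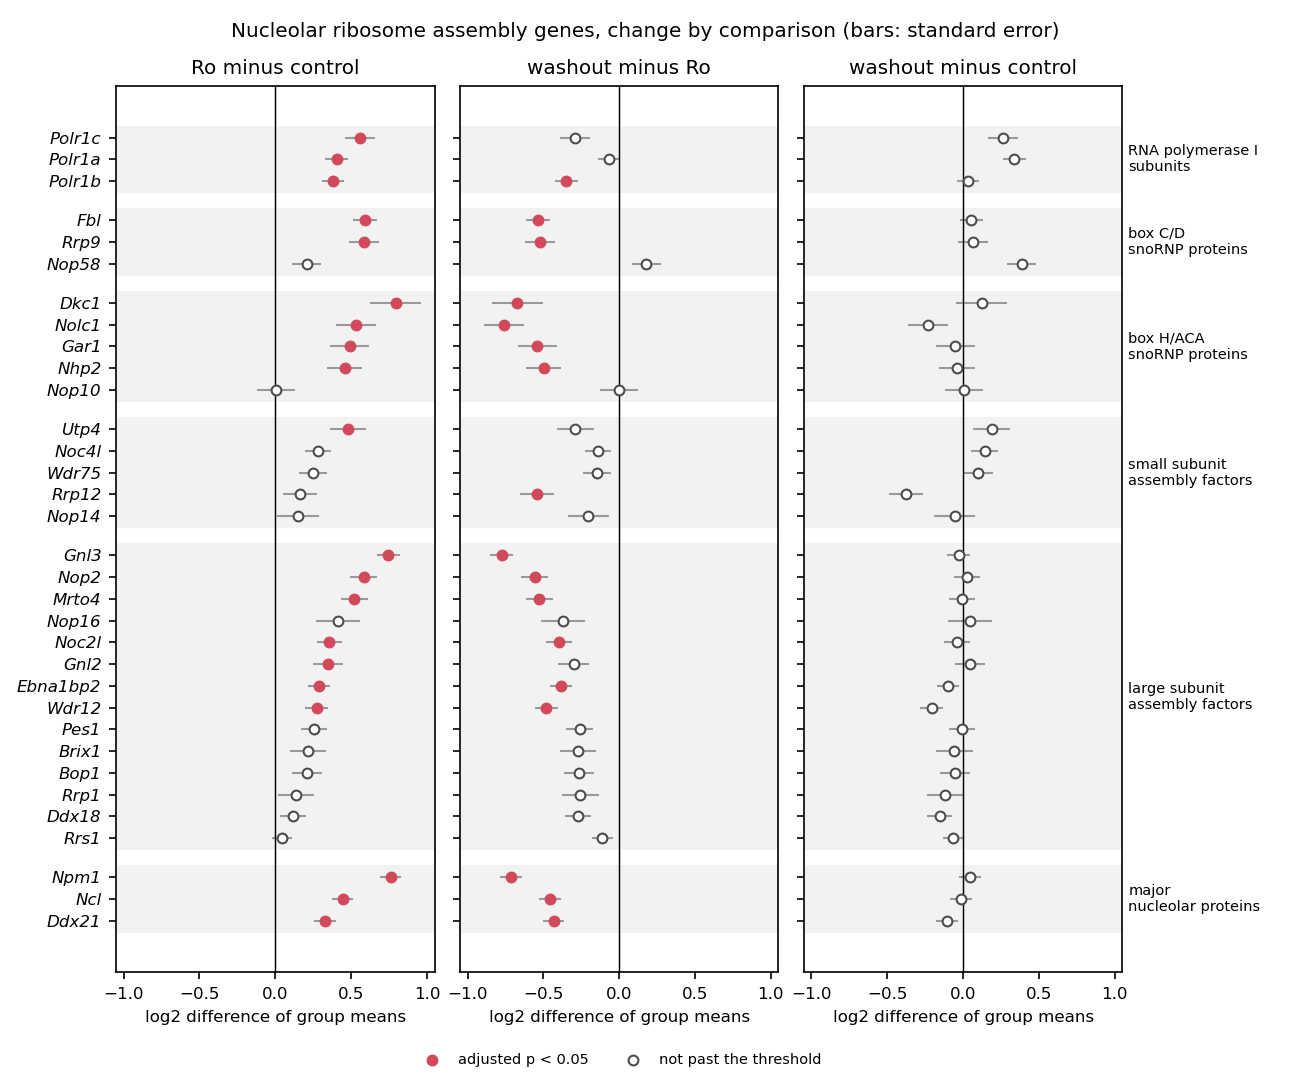
Change of each of the 33 measured genes (log2 difference of group means, with its standard error) in Ro against control, washout against Ro and washout against control, grouped by role; filled points passed an adjusted p of 0.05. There are 20 filled points in the first panel, 17 in the second and 0 in the third.

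After 48 h without the inhibitor the genes were lower again. Of the 33 measured, 17 fell and 0 rose in washout relative to Ro, against 20.1% of all features called lower and 21.4% called higher. The median change was -0.37, beside -0.02 over all features, and 31 of 33 changes were below 0. Both washout arrays lay below both Ro arrays for 31 genes, against 38.2% of all features, and above them for 1, Nop58, against 36.2%. Without Ro 1 the count of falls was 8, beside 10.4% of all features, and without Ro 2 it was 6, beside 10.9%. With no filter on dim probes it was 11, beside 8.18%. This comparison shares the Ro arrays with the one before, so the opposite signs are not independent of each other.

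Relative to control, no gene of the group was called in washout. The counts were 0 higher and 0 lower in limma, against 4.13% and 5.97% of all features, and 5 of the 33 had an unadjusted p under 0.05. The median change was -0.01, and 15 changes lay above 0 and 18 below. The washout arrays lay wholly above the control arrays for 5 genes and wholly below for 6, patterns shown by 26.8% and 29.4% of all features. The 95% interval of the change lay within 1.5-fold in either direction for 31 of the 33 genes, and within 1.25-fold for 15. The ends of the range were Nop58 at 0.39 ± 0.10 (adjusted p = 0.0725) and Rrp12 at -0.38 ± 0.11 (adjusted p = 0.107). The Rrp12 probe lay in a bright region of a slide on at least 1 array. Polr1a (0.34 ± 0.07, adjusted p = 0.0557) passed with quantile normalization (adjusted p = 0.0405), with only probes detected on all 6 arrays (adjusted p = 0.0426) and with a trended, robust variance (adjusted p = 0.0150). Nop58 passed with the last of these (adjusted p = 0.0195).

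**Figure D2:**
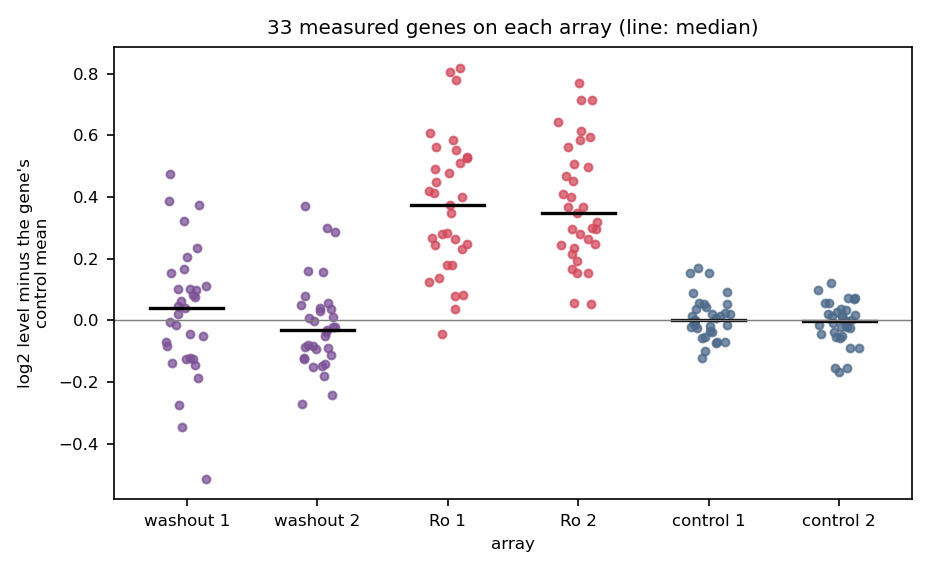
Each of the 33 genes on each array, as its log2 level minus its own mean in control (points), with the median (line). The medians of the washout arrays are 0.04 and -0.03, those of the Ro arrays 0.37 and 0.35, and those of the control arrays lie at 0.

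The array medians separate Ro from the other groups. On Ro 1, 32 of the 33 genes lay above their control mean, and on Ro 2 all 33. On washout 1 and washout 2 the counts were 18 and 13. Over all features, the array medians measured the same way lay between -0.03 and 0.01 on every array.

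The 3 listed subunits of RNA polymerase I rose in Ro, beside 19.4% of all features called higher. Of the other subunit genes measured, outside the list, Polr1d rose by 0.29 ± 0.07 (adjusted p = 0.029) and Polr1e was at -0.07 ± 0.07 (adjusted p = 0.439). Polr1c, which polymerases I and III share, stood at 3.71 and 3.49 in washout, 3.86 and 3.92 in Ro, and 3.38 and 3.29 in control. Its level in Ro was above both other groups, and its change of 0.56 ± 0.10 over control (1.47-fold, adjusted p = 0.0101) was the highest of these 3. In washout it was 0.29 ± 0.10 below Ro, which did not pass (adjusted p = 0.0686). Polr1a, the largest subunit, which holds the catalytic centre together with Polr1b, stood at 2.36 and 2.26 in washout, 2.38 and 2.39 in Ro, and 1.94 and 2.01 in control. Here the washout arrays lay next to the Ro arrays. The change was 0.41 ± 0.07 in Ro over control (adjusted p = 0.0115), and -0.07 ± 0.07 in washout relative to Ro (adjusted p = 0.504). Polr1b, the second largest subunit, stood at -1.45 and -1.36 in washout, -1.03 and -1.09 in Ro, and -1.42 and -1.45 in control. It rose by 0.38 ± 0.07 in Ro (adjusted p = 0.0135) and fell by 0.35 ± 0.07 in washout relative to Ro (adjusted p = 0.0174). The difference between Polr1a and Polr1b in washout was not tested.

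Among box C/D snoRNP proteins, 2 of 3 rose in Ro, beside 19.4% of all features called higher. Fbl, fibrillarin, the enzyme that adds methyl groups to the ribose of ribosomal RNA, stood at 4.92 and 4.82 in washout, 5.40 and 5.41 in Ro, and 4.87 and 4.76 in control. The Ro arrays lay above all others, and the other groups overlapped. Its change was 0.59 ± 0.08 over control (1.51-fold, adjusted p = 0.0040) and -0.53 ± 0.08 in washout relative to Ro (adjusted p = 0.0054). Rrp9, the protein particular to the U3 snoRNP, changed by 0.58 ± 0.10 (adjusted p = 0.0087) and then by -0.52 ± 0.10 (adjusted p = 0.0122). Nop58, a core protein of all box C/D particles, ran a different course on the arrays, at 3.34 and 3.17 in washout, 3.05 and 3.10 in Ro, and 2.80 and 2.94 in control. The 3 groups did not overlap and washout was the highest, yet neither 0.21 ± 0.10 in Ro over control (adjusted p = 0.147) nor 0.18 ± 0.10 in washout over Ro (adjusted p = 0.195) passed.

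Of the 5 genes listed with box H/ACA particles, which make pseudouridine, 4 rose in Ro, beside 19.4% of all features called higher. All 4 fell in washout relative to Ro, beside 20.1% of all features called lower. Dkc1, dyskerin, the pseudouridine synthase, was at 0.79 ± 0.17 in Ro over control (1.73-fold, adjusted p = 0.0175). Its probe read -2.97 and -2.48 in washout, -2.03 and -2.08 in Ro, and -2.85 and -2.85 in control. The Ro arrays were above the others, but a second Dkc1 probe gave -0.15, with control 1 at -1.72 and control 2 at -3.21, so that its control arrays lay on either side of the Ro arrays. With the mean of both probes Dkc1 was at 0.32 and did not pass in Ro (adjusted p = 0.374), nor in washout relative to Ro, at -0.52 (adjusted p = 0.175). The core proteins Gar1 (0.49 ± 0.13, adjusted p = 0.0341) and Nhp2 (0.46 ± 0.12, adjusted p = 0.0308) rose, as did Nolc1, a chaperone that binds snoRNPs (0.53 ± 0.13, adjusted p = 0.0292). Nolc1 fell in washout relative to Ro by 0.76 ± 0.13 (adjusted p = 0.0095), Dkc1 by 0.67 ± 0.17 (adjusted p = 0.0288), Gar1 by 0.54 ± 0.13 (adjusted p = 0.0255) and Nhp2 by 0.50 ± 0.12 (adjusted p = 0.0237). The second Nolc1 probe was at -0.08 there, and the mean of its probes at -0.42 (adjusted p = 0.0102). Nop10, the smallest core protein, stood at 3.60 and 3.31 in washout, 3.40 and 3.50 in Ro, and 3.37 and 3.52 in control. Its groups overlapped, and its change of 0.01 ± 0.13 in Ro had a 95% interval of -0.32 to 0.33 and turned negative with quantile normalization and with a normexp background correction.

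Of the 5 measured small subunit factors 1 rose in Ro, a share near the 19.4% of all features called higher. All 5 changes lay above 0, as did 50.4% of all features. Utp4, a protein of the UtpA complex that joins the nascent precursor RNA first, stood at -0.63 and -0.89 in washout, -0.50 and -0.44 in Ro, and -0.86 and -1.04 in control. Its Ro arrays were above the rest, with a change of 0.48 ± 0.12 (1.39-fold, adjusted p = 0.0296). Wdr75, another UtpA protein (0.25 ± 0.09, adjusted p = 0.0913), and Noc4l, a partner of Nop14 (0.28 ± 0.09, adjusted p = 0.0529), missed the threshold. Noc4l stayed uncalled in 10 of 17 alternatives. It passed in the rest, among them median centring (0.32, adjusted p = 0.0371) and the fit on the Ro and control arrays only (adjusted p = 0.0318). Nop14, of the small subunit processome, stood at 0.19 and 0.33 in washout, 0.40 and 0.53 in Ro, and 0.49 and 0.15 in control. Its control arrays spanned most of the Ro range, and the change was 0.15 ± 0.14 (adjusted p = 0.427), turning to -0.02 without control 2. Rrp12, needed in yeast for export of both subunit precursors, changed by 0.16 ± 0.11 in Ro (adjusted p = 0.297). It fell by 0.54 ± 0.11 in washout relative to Ro (adjusted p = 0.0167), on the probe in a bright region named above. Its levels were low, at -3.85 and -3.58 in washout and -3.20 and -3.14 in Ro. With no filter on dim probes the fall did not pass (adjusted p = 0.0540).

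Of the 14 large subunit factors 7 rose in Ro, beside 19.4% of all features called higher. In washout relative to Ro 6 fell, beside 20.1% of all features called lower. Gnl3, nucleostemin, a nucleolar GTPase known from stem and progenitor cells, stood at -0.03 and -0.13 in washout, 0.72 and 0.66 in Ro, and -0.05 and -0.06 in control. The Ro arrays lay well clear of the rest. The change was 0.75 ± 0.07 in Ro over control (1.68-fold, adjusted p = 0.0017), -0.77 ± 0.07 in washout relative to Ro (adjusted p = 0.0014) and -0.03 ± 0.07 in washout over control (adjusted p = 0.833). Nop2, which methylates a cytosine of the large ribosomal RNA and whose promoter window is printed above, rose by 0.58 ± 0.09 (1.50-fold, adjusted p = 0.0061) and fell by 0.56 ± 0.09 in washout (adjusted p = 0.0069). Mrto4, which in yeast holds the place of the stalk protein on the precursor, rose by 0.52 ± 0.09 (adjusted p = 0.0086) and fell by 0.53 ± 0.09 (adjusted p = 0.0081).

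The other large subunit factors called in Ro changed less. They were Noc2l, whose yeast counterpart binds early precursors (0.36 ± 0.09, adjusted p = 0.0252), Gnl2, a GTPase of the same family as Gnl3 (0.35 ± 0.10, adjusted p = 0.0432), Ebna1bp2, the counterpart of yeast Ebp2 (0.29 ± 0.07, adjusted p = 0.0289), and Wdr12 (0.27 ± 0.08, adjusted p = 0.0424). Wdr12 forms the PeBoW complex with Pes1 and Bop1, and those partners stood at 0.25 ± 0.09 (adjusted p = 0.0695) and 0.21 ± 0.10 (adjusted p = 0.146). Pes1 passed in 10 of 17 alternatives, among them the mean of its probes (0.37, adjusted p = 0.0187) and the exclusion of bright regions, which leaves its second probe (0.49, adjusted p = 0.0079). In washout relative to Ro, Wdr12 fell by 0.48 ± 0.08 (adjusted p = 0.0074), Noc2l by 0.40 ± 0.09 (adjusted p = 0.0175) and Ebna1bp2 by 0.39 ± 0.07 (adjusted p = 0.0118). Gnl2 missed the threshold there, at -0.30 ± 0.10 (adjusted p = 0.0646). With the mean of its probes Ebna1bp2 was at 0.33 in Ro over control (adjusted p = 0.0592) and -0.26 in washout relative to Ro (adjusted p = 0.112), and neither passed.

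The 5 remaining large subunit factors had changes between 0.04 and 0.41 in Ro and were not called. Nop16, a factor of early precursors in yeast, was at 0.41 ± 0.15 (adjusted p = 0.0746), Brix1, whose yeast counterpart acts on early large subunit precursors, at 0.22 ± 0.12, Rrp1, needed in yeast to process the large subunit RNA, at 0.14 ± 0.12, and the RNA helicase gene Ddx18 at 0.12 ± 0.08. Rrs1, which in yeast brings the 5S particle to the precursor, stood at 1.61 and 1.58 in washout, 1.70 and 1.71 in Ro, and 1.68 and 1.64 in control. Its change of 0.04 ± 0.07 had a 95% interval of -0.13 to 0.21. The probes used for Nop16 and Pes1 lay in a bright region on at least 1 array. Without such regions Nop16 was at 0.40 and passed (adjusted p = 0.0169).

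All 3 abundant nucleolar proteins rose in Ro and fell in washout relative to Ro. Over all features 19.4% were called higher in Ro and 20.1% lower in washout relative to Ro. Npm1, nucleophosmin, which surrounds the dense parts of the nucleolus and escorts subunit precursors, stood at 4.84 and 4.80 in washout, 5.58 and 5.49 in Ro, and 4.76 and 4.79 in control. The washout arrays lay just above the control arrays and far below the Ro arrays. The change was 0.76 ± 0.07 in Ro over control (1.69-fold, adjusted p = 0.0014), -0.71 ± 0.07 in washout relative to Ro (1.64-fold lower, adjusted p = 0.0016) and 0.05 ± 0.07 in washout over control (adjusted p = 0.714). A second Npm1 probe gave 0.80 in Ro over control and -0.74 in washout relative to Ro.

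Ncl, nucleolin, a chromatin and RNA binding protein of the nucleolus, stood at 5.09 and 5.07 in washout, 5.58 and 5.49 in Ro, and 5.11 and 5.08 in control. It rose by 0.44 ± 0.07 in Ro (1.36-fold, adjusted p = 0.0072) and fell by 0.46 ± 0.07 in washout relative to Ro (adjusted p = 0.0065), and its 4 probes gave rises from 0.40 to 0.85. Ddx21, an RNA helicase that works with RNA polymerase I, stood at 0.25 and 0.28 in washout, 0.65 and 0.74 in Ro, and 0.36 and 0.39 in control. It rose by 0.33 ± 0.07 in Ro (1.25-fold, adjusted p = 0.0191) and fell by 0.43 ± 0.07 in washout relative to Ro (adjusted p = 0.0077), with its 3 probes between 0.33 and 0.80 in Ro over control.

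**Figure D3:**
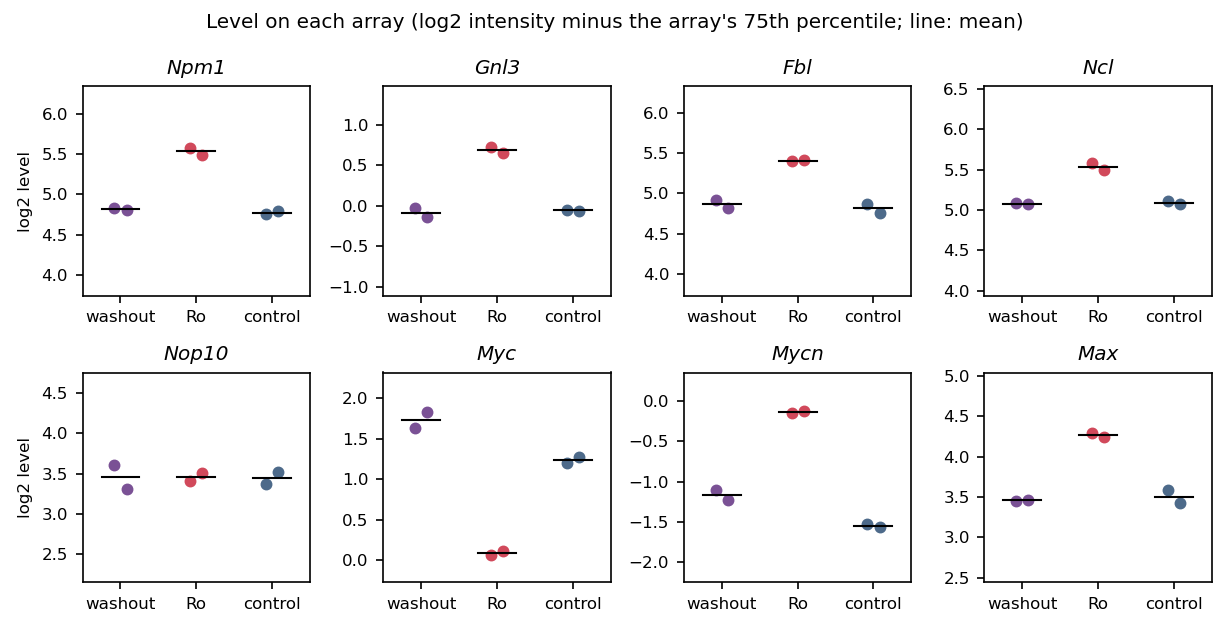
Levels of 5 of the genes and of Myc, Mycn and Max on each array (points; log2 intensity minus the array's 75th percentile), with the group mean (line), for washout, Ro and control. The Npm1 points lie at 5.58 and 5.49 in Ro and between 4.76 and 4.84 in the other groups, while the Nop10 points overlap in all 3 groups.

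Several probes of a gene mostly pointed the same way. For 13 of the genes more than 1 probe was kept, and all probes had the same sign in Ro over control for 12 of them, the exception being Dkc1. In washout relative to Ro all 13 had one sign, and in washout over control, where changes were near 0, 5 did. Counted singly, 49 of the 50 probes were higher in Ro than in control and 48 were lower in washout than in Ro. Probes of a gene share its RNA and are not replicates.

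Measured genes with and without the E-box in the promoter window were set side by side. Of the 3 measured genes whose window holds it 2 rose in Ro, Nop2 and Utp4, with a median of 0.48 over the 3. Pes1 missed the threshold here and passed in some alternatives, as above. Of the 24 whose window of 300 bases lacks it 15 rose, with a median of 0.37. Over all features 19.4% were called higher in Ro. E-boxes outside the window were not searched. No test was made on sets of this size.

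A wider list of 108 nucleolar assembly genes outside the group was likewise chosen with earlier results of these data known. Of the 108 genes 99 were measured, and these also lay mostly above control in Ro. Of these 40 rose and 3 fell, with a median of 0.26, against 19.4% of all features called higher and 22.7% called lower. In washout relative to Ro 37 fell and 3 rose, with a median of -0.26, against 20.1% called lower and 21.4% called higher. The count of rises in Ro was 13 without Ro 1, 11 without Ro 2, 21 without control 1 and 20 without control 2, to be read against the shares of all features given above for these settings. Without Ro 2 the 11 of 99 genes are near the 10.2% of all features. The falls in washout relative to Ro numbered 9 without Ro 1 and 10 without Ro 2, near the 10.4% and 10.9% of all features there. In washout over control 1 rose and 2 fell, counts of 0 and 0 when any 1 array was left out.

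Of 10 other genes of the RNA polymerase I machinery 4 rose in Ro and 0 fell, beside 19.4% and 22.7% of all features. The initiation factor Rrn3, which joins the polymerase to the promoter, rose by 0.52 ± 0.09 (adjusted p = 0.0087), and Taf1d, a subunit of the promoter selectivity factor SL1, by 1.06 ± 0.12 (adjusted p = 0.0024). Taf1d fell by 1.02 ± 0.12 in washout relative to Ro (adjusted p = 0.0028). The genes called in washout over control were Taf1a, also of SL1, at 0.34 (adjusted p = 0.046), and, as falls, the polymerase subunit gene Polr1e at -0.43 (adjusted p = 0.027) and the small subunit factor Nop9 at -0.47 (adjusted p = 0.025). The Taf1a probe lay in a bright region on 2 arrays.

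Of 42 other small subunit factors 13 rose in Ro and 1 fell, beside 19.4% and 22.7% of all features. Imp4, a U3 snoRNP protein, rose by 0.80 ± 0.18 (adjusted p = 0.020), at low levels of -4.04 and -3.90 in Ro and -4.51 and -5.02 in control. Tsr1, which in yeast acts late in small subunit assembly, rose by 0.65 ± 0.08 (adjusted p = 0.0034), while Nop9 fell by 0.58 ± 0.07 (adjusted p = 0.0032). Of 39 other large subunit factors 21 rose and 1 fell. The helicase gene Ddx31 rose by 0.73 ± 0.09 (adjusted p = 0.0038), and Nop53, which in yeast brings the exosome to the precursor, by 0.62 ± 0.08 (adjusted p = 0.0035). Las1l, of the nuclease that cuts the spacer between the large subunit RNAs, fell by 0.29 ± 0.08 (adjusted p = 0.042). Its probe lay in a bright region on 1 array.

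Of 8 genes for the assembly of snoRNPs 2 rose in Ro and 1 fell, counts near the 19.4% and 22.7% of all features. The median change of this list was 0.05. Znhit6, which helps to build box C/D particles, rose by 1.17 ± 0.09 in Ro (2.25-fold, adjusted p = 0.00069) and fell by 1.22 ± 0.09 in washout relative to Ro (adjusted p = 0.00059). Shq1, the chaperone of dyskerin, rose by 0.69 ± 0.09 (adjusted p = 0.0044), and Rpap3, of the R2TP chaperone complex, fell by 0.31 ± 0.07 (adjusted p = 0.024).

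**Figure D4:**
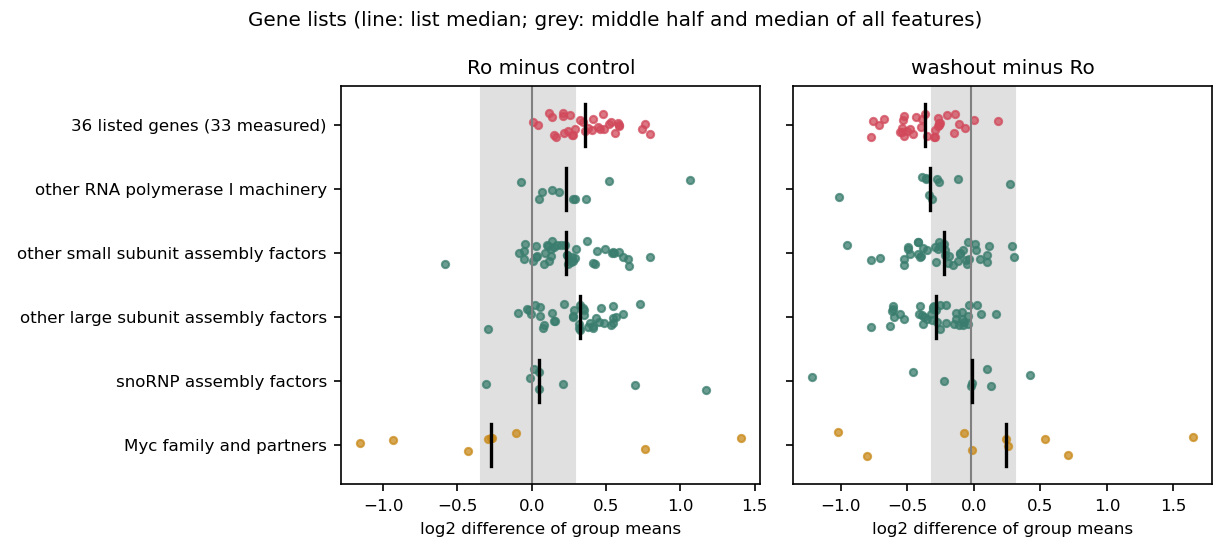
Change of each measured gene (points; log2 difference of group means) in the group of 36 and in 5 other lists, for Ro against control and washout against Ro, with the list median (black line), the middle range of all features (grey band, between the quartiles) and their median (grey line). The medians of the group are 0.36 and -0.37, and those of all features 0.00 and -0.02.

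Genes of the Myc network moved in different directions. Of 9 measured, 2 rose and 4 fell in Ro, beside 19.4% and 22.7% of all features. Myc itself stood at 1.63 and 1.84 in washout, 0.06 and 0.12 in Ro, and 1.20 and 1.28 in control. It was thus lowest in Ro, where the assembly genes were highest, with a change of -1.15 ± 0.10 in Ro over control (adjusted p = 0.0010) and 1.65 ± 0.10 in washout over Ro (adjusted p = 0.00036). Its probe lay in a bright region on 2 arrays, and with such probes left out the change in Ro was -1.14. Mycn, a close relative of Myc, stood at -1.10 and -1.22 in washout, -0.15 and -0.12 in Ro, and -1.53 and -1.56 in control, a change of 1.41 ± 0.08 in Ro (adjusted p = 0.00032). With the mean of its probes Mycn was at 0.94 and did not pass (adjusted p = 0.132).

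Max, the shared partner of these proteins, stood at 3.45 and 3.47 in washout, 4.29 and 4.24 in Ro, and 3.59 and 3.42 in control. It rose by 0.76 ± 0.08 in Ro (adjusted p = 0.0023) and fell by 0.81 ± 0.08 in washout relative to Ro (adjusted p = 0.0019). Mxd4, a repressor that competes for Max, fell by 0.93 ± 0.08 in Ro (adjusted p = 0.0011). In washout over control Myc was at 0.49 ± 0.10 (adjusted p = 0.041) and Mycn at 0.39 ± 0.08 (adjusted p = 0.043). Both calls were lost when any 1 of the 6 arrays was left out, with adjusted p from 0.054 to 0.145 for Myc and from 0.059 to 0.157 for Mycn. With the mean of its probes the Mycn change in washout over control turned negative. Mycn, Max and Mxd4 were named after their values were seen, and any part of this network in the change of the assembly genes was not tested.

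Markers of some other cell types also differed between the groups. In Ro over control 19.4% of all features were called higher and 22.7% lower. All 10 astrocyte markers were measured, and 3 rose and 5 fell in Ro. Of 10 measured microglia markers 0 rose and 5 fell, and their summed level, in units of the array's 75th percentile, was 12.5 to 13.7 in washout, 8.19 to 10.6 in Ro and 12.4 to 12.8 in control. All 4 measured oligodendrocyte precursor markers fell, with sums of 15.0 to 15.8 in washout, 6.04 to 6.05 in Ro and 24.2 to 24.5 in control, and all 5 ependymal markers fell, with sums of 59.4 to 66.9 in washout, 16.8 to 19.6 in Ro and 50.7 to 52.3 in control. Of 7 meningeal fibroblast markers 1 rose and 5 fell, and of 6 measured neuron markers 2 rose and 3 fell. Of 5 oligodendrocyte markers 1 rose and 1 fell, counts near the shares of all features. Of 2 endothelial markers 1 rose and 1 fell. In washout over control 6 of the 7 meningeal fibroblast markers were lower, as were 3 of the 4 oligodendrocyte precursor markers, beside 5.97% of all features. The fibroblast sums were 17.3 to 17.8 in washout, 19.4 to 19.8 in Ro and 24.9 to 29.8 in control. In limma 0 of 10 microglia and 0 of 5 ependymal markers were called in that comparison, with 3 of each at an unadjusted p under 0.05. The part of these cells in the change of the assembly genes was not tested. Of 12 proliferation genes 1 rose, Mki67 at 0.31 (adjusted p = 0.034), and 1 fell, Rrm2 at -0.52 (adjusted p = 0.013), both named after their values were seen. Their summed level was 71.6 to 75.3 in washout, 74.9 to 75.2 in Ro and 73.0 to 73.4 in control.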

How the data were processed

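The deposited array files hold the intensity of each spot on a linear scale, extracted with Agilent Feature Extraction (version 10.1 per the submitters' processing notes, 10.5.1.1 per the file headers) from Cy3-labelled RNA and corrected for background within the array. A deposited table of the whole series gives each probe as a linear ratio, centred by a rule not given in the sources used here. Its probe-centred log2 values correlated with those of the processed intensity at 0.999998 or above, and the table was used only as an alternative setting.

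Of 41174 non-control probes 106 with faulty spots were left out, and 61.0% of the 41068 used were named through their accession and RefSeq's table. The 75th percentile of each array was subtracted from its log2 processed intensities. A probe was kept if some group had both arrays well above background (26474 probes), and each gene took its probe with the highest mean. Group differences were tested with limma 3.58.1 under R 4.3.3 (lmFit and eBayes over all 6 arrays, 3 residual and 2.09 prior degrees of freedom), with Benjamini-Hochberg adjustment. The procedure was run on simulated data, and the outcome is not reported here. Figures and counts used Python 3.11.15 and matplotlib 3.10.9.

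The genes and lists were chosen with earlier results of these data known. By the rule for naming, values on every array were given for Npm1, Ncl, Fbl, Polr1a, for the genes with the highest and lowest change in Ro in each role, and for any called in washout over control. From each other assembly list the largest 2 calls per direction could be named. Myc was named as a known regulator. A bright region is where the median of the 50 nearest dim spots exceeded that of the array by over 0.5 on the log2 scale. It held 0.191% to 3.57% of an array's spots. Alternatives changed scaling, background correction (normexp with an offset of 50 on the median signal), filter, probe choice, variance model, arrays and pairing.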

Additional observations from a re-analysis of the deposited data

How the results depend on the processing

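With 17 alternatives, none of the genes called in Ro over control or in washout relative to Ro changed sign. Of the 20 calls in Ro over control 4 were kept in every alternative that held the gene, and of the 17 in washout relative to Ro also 4, in both comparisons Fbl, Nop2, Gnl3 and Npm1. Setting aside the fits that left out an array, 10 calls were kept in each. The count of rises in Ro was 10 with no filter on dim probes and 5 to 22 when 1 array was left out. The count of falls in washout relative to Ro was 11 with no filter and 6 to 17 when 1 array was left out. In washout over control the count of rises was 1 with quantile normalization, beside 4.10% of all features called higher. It was 1 with probes detected on all 6 arrays, beside 5.39%, and 2 with a trended, robust variance, beside 6.60%. The cause of each single loss was not tested.

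The median change in Ro over control was 0.40 with median centring, 0.40 with the deposited values and 0.39 without bright regions. In washout relative to Ro it was -0.46 with median centring, -0.33 with normexp, -0.47 with the deposited values, -0.32 without bright regions, and -0.41 to -0.32 when 1 array was left out. Median centring moved the median of all features in that comparison to -0.11 and the deposited values to -0.12, and the median of the 33 genes is to be read relative to that shift. The share of higher among all calls there was 40.5% and 38.9%, against 51.5%. In washout over control the median was -0.055 with median centring, -0.067 with the deposited values, and -0.032 to 0.040 when 1 array was left out. Higher calls made up 30.8% and 29.1% of all calls in these 2 settings, against 40.9%.

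Same-numbered arrays showed no clear shared deviation: their deviations from the group means correlated at -0.12 (Ro and control), 0.08 (washout and control) and -0.11 (washout and Ro). With 2 arrays a group these values cannot show whether same-numbered samples shared a culture. With the replicate block 14 genes rose in Ro, beside 15.2% of all features, and 16 fell in washout relative to Ro, beside 16.3%, and of the other assembly genes 26 rose in Ro. Over all features the block gave 297 higher and 469 lower in washout over control, against 829 and 1199.

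Among the 33 genes, sign changes occurred only in values that were not called. In Ro over control Nop10 was at -0.013 with quantile normalization, -0.0050 with normexp and between -0.068 and 0.080 with an array left out, and Nop14 between -0.021 (without control 2) and 0.32. In washout relative to Ro Nop10 was at -0.091 with median centring, -0.10 with the deposited values and between -0.15 and 0.15 with an array left out. In washout over control, where changes were near 0, 24 of the 33 genes changed sign in at least 1 alternative. Among the 15 genes named there, median centring gave -0.017 for Polr1b, -0.043 for Nop10 and -0.0023 for Npm1. The deposited values gave -0.029 for Polr1b, -0.0059 for Fbl, -0.056 for Nop10 and -0.015 for Npm1. The mean of probes gave -0.20 for Dkc1, -0.037 for Utp4, 0.056 for Ncl and, for Mycn, -0.078. Mycn, which is not among the 33, had been called there (0.39, adjusted p = 0.043 in limma), so that this call changed sign. Quantile normalization gave 0.011 and normexp 0.041 for Ncl. With an array left out the values ran from -0.015 to 0.079 for Polr1b, -0.12 to 0.37 for Dkc1, -0.14 to 0.15 for Nop10, -0.22 to 0.11 for Nop14, -0.080 to 0.022 for Gnl3, -0.027 to 0.0014 for Ncl and -0.13 to 0.037 for Max.

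The number of arrays limits the precision, and all 33 genes were well above background on every array. The washout group differs from the others in slide and culture age as well as in treatment, and these cannot be told apart. Any step done slide by slide goes with the slide.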
